A study of Mus musculus with 9 samples.

Results

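The genes described here are Trp53, which encodes the transcription factor p53, its relative Trp73, and target genes of p53 outside the BCL2 family, 40 genes in all. They were chosen by symbol from a list of known p53 pathway genes, and all 40 had 1 row each in both gene tables of the series, of 22631 genes in the table of Mutant and Control cells and of 27775 genes in a table of arms abbreviated PT and PUT. The cells were satellite cells (muscle stem cells) from hindlimb muscles of mice aged 9 weeks. The Mutant mice were Uhrf1-deficient in satellite cells, by tamoxifen given for 5 days to induce Cre recombination, and the Control mice received oil (3 libraries each). Per the labels' protocols, cells of both groups were cultured for 3 days before RNA extraction. No values labelled for a further 3 libraries, of tamoxifen-treated Cre Control mice, were used here. Whether those libraries are part of the PT and PUT table is not stated. The sources used here do not name the promoter that drives Cre or the alleles of the Control mice. They also do not say whether each library came from its own animal, so the p-values cover the spread of these libraries, whether technical or biological. Treatment with tamoxifen or oil and the loss of Uhrf1 cannot be told apart in the comparison of Mutant with Control.

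p53 is a transcription factor that stabilises when DNA is damaged or replication is disturbed. It is held low by the ubiquitin ligase Mdm2, itself a p53 target, and it switches on genes that halt the cell cycle, repair DNA, adjust metabolism and start apoptosis. Its amount is set mostly at the level of the protein, so the mRNA of Trp53 need not follow its activity. Uhrf1 guides the methyltransferase Dnmt1 to hemimethylated DNA after replication.

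Uhrf1 itself was at 20.4 TPM (a transcript level scaled for gene length and library size) in Mutant cells and at 118 TPM in Control cells in the authors' deposited table. That table gives mean levels per group and no value per library, so the spread of single libraries is known here through the standard errors (SE) alone. Each change of Mutant over Control given with an SE is the log2 estimate behind the authors' test, that is, the statistic times the SE of the authors' deposited table. A gene was called at an adjusted p below 0.05 by the authors' test. Uhrf1 fell by this measure in the authors' deposited table (log2 estimate -3.12, SE 0.60, adjusted p = 4.01e-06). The repeat counts single out 1 library. The retroviral element IAPEz-int made up 9.29%, 11.1% and 16.3% of repeat counts in the Mutant libraries, 0.501% and 0.675% in Control 1 and Control 2, and 13.1% in the library labelled Control 3 (95% Wilson interval 13.1 to 13.2, counting error only). Control 3 therefore lay with the Mutant libraries and apart from the other Control libraries by this measure. Gene values without that library were not analysed here, so each difference below is given with whatever it contributes to the Control means.

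Markers of satellite cells and myoblasts were abundant in both groups, with 8 of 8 listed genes summing to 2584 TPM in Mutant cells and 2639 TPM in Control cells in the authors' deposited table. Of these 8, Pax7 and Des rose and Vcam1, Itga7, Cdh15 and Myod1 fell in Mutant cells in the authors' deposited table, beside 9.03% of all genes tested that rose and 8.1% that fell. Markers of macrophages and leukocytes summed to 115 TPM in Mutant cells and 34.3 TPM in Control cells in the authors' deposited table, over 8 of 11 listed genes, of which 2 (Laptm5 and Cd68) rose and 0 fell, and 7 of the 8 had a positive log2 fold change. Laptm5 at 84.8 and 25.1 TPM made up most of those sums in Mutant and Control cells in the authors' deposited table, and Fcer1g was at 19.3 and 3.22 TPM and not called (adjusted p = 0.203). Cd68 was at 6.27 and 3.46 TPM and Cd14, not called, at 3.39 and 1.70 TPM in Mutant and Control cells in the authors' deposited table. The other 4, Csf1r (0.430 and 0.156 TPM), Lyz2 (0.608 and 0.197 TPM), Ptprc (0.303 and 0.381 TPM) and C1qa (0.0648 and 0.0496 TPM), were below 1 TPM in Mutant and Control cells in the authors' deposited table and were not called. Endothelial markers summed to 21.6 and 23.1 TPM and fibroblast markers to 75.3 and 65.9 TPM in Mutant and Control cells in the authors' deposited table. Of 6 endothelial markers Tek rose and Cdh5 and Pecam1 fell, and of 6 fibroblast markers 0 were called (Col1a1 and Ly6a had an unadjusted p below 0.05), in the authors' deposited table. The part of other cell types in the changes below was not tested. In such bulk samples, fewer cells of a type and less RNA per cell cannot be told apart.

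Genes of the p53 pathway were higher in Mutant cells across most roles. Of the 40 genes, 29 rose and 0 fell in Mutant cells in the authors' deposited table, beside 9.03% of all genes tested that rose and 8.1% that fell (17.1% called in either direction). Among the genes of at least 10 TPM, which hold 31 of the 40, 15.6% rose in the authors' deposited table. The median log2 fold change of the 40 was 0.74, against 0.01 over all genes of the authors' deposited table. Summed over the 40, the level was 3655 TPM in Mutant cells and 2274 TPM in Control cells in the authors' deposited table. The 11 genes that were not called were Trp53, Trp73, Mdm4, Gadd45a, Plk2, Plk3, Dram1, Sesn1, Fdxr, Ddb2 and Xpc. Zmat3, Abhd4 and Ephx1 had the 4th, 7th and 10th largest statistic of all 22631 genes in the authors' deposited table.

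**Figure D1:**
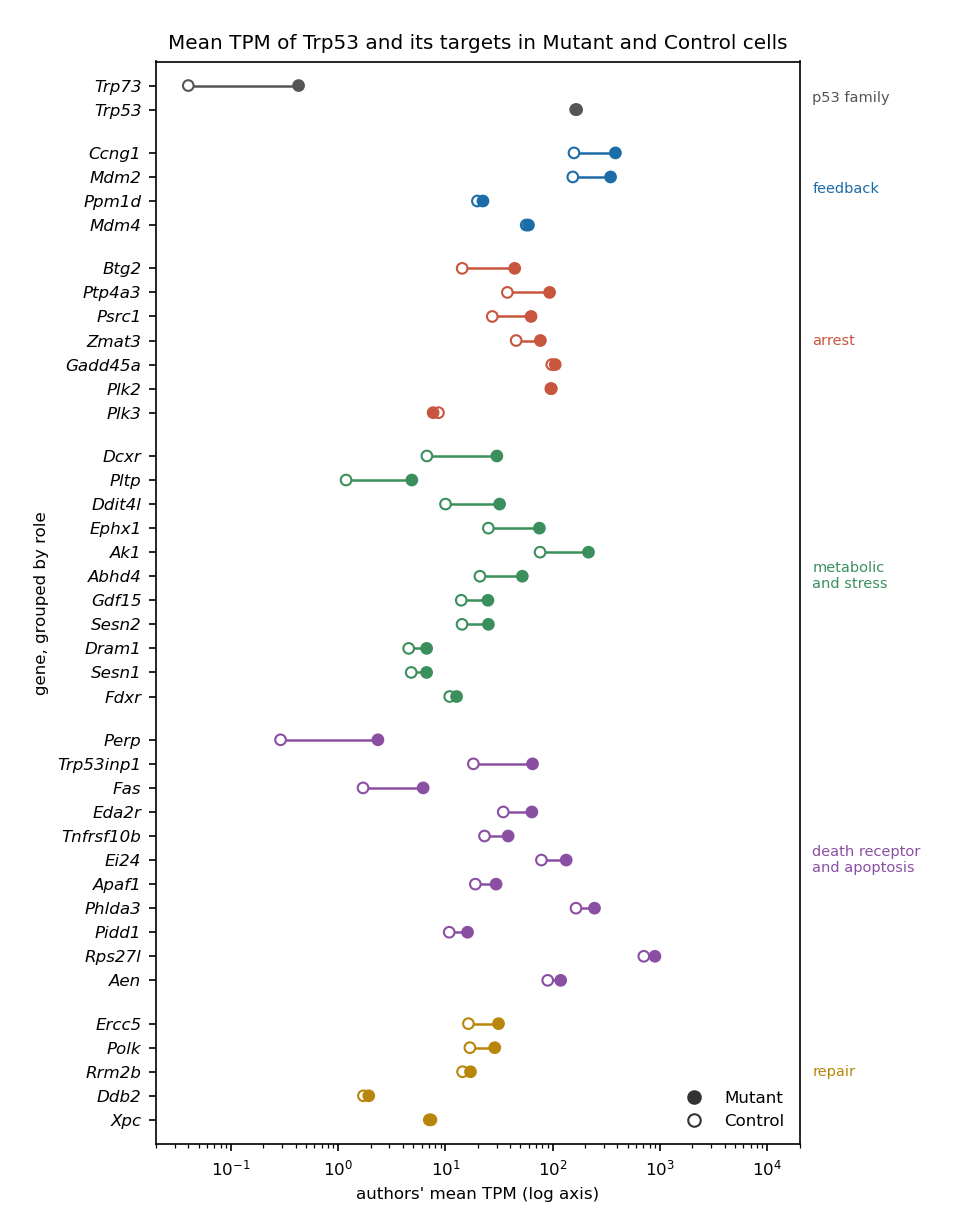
Mean TPM of each gene in Mutant cells (filled circles) and Control cells (open circles), on a log axis, as given in the authors' deposited table; genes are grouped by role and ordered within a role by the log2 estimate. Filled circles lie to the right of open ones for 38 of the 40 genes, and Trp53 shows no visible distance between them (167 and 164 TPM).

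Genes rose in each role apart from the p53 family itself. All 11 genes of death receptors and apoptosis rose, as did 8 of 11 metabolic and stress genes, 3 of 4 feedback genes, 4 of 7 arrest genes and 3 of 5 repair genes in the authors' deposited table, beside 9.03% of all genes. The median log2 fold change was 1.27 for metabolic and stress genes, 0.74 for arrest genes, 0.71 for death genes, 0.66 for feedback genes and 0.23 for repair genes in the authors' deposited table. By the log2 estimate the medians were 1.25 for metabolic and stress genes, 0.71 for both arrest and death genes, 0.66 for feedback genes and 0.38 for repair genes in the authors' deposited table. The differences between roles were not tested, since the genes were chosen with earlier results of these data known.

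**Figure D2:**
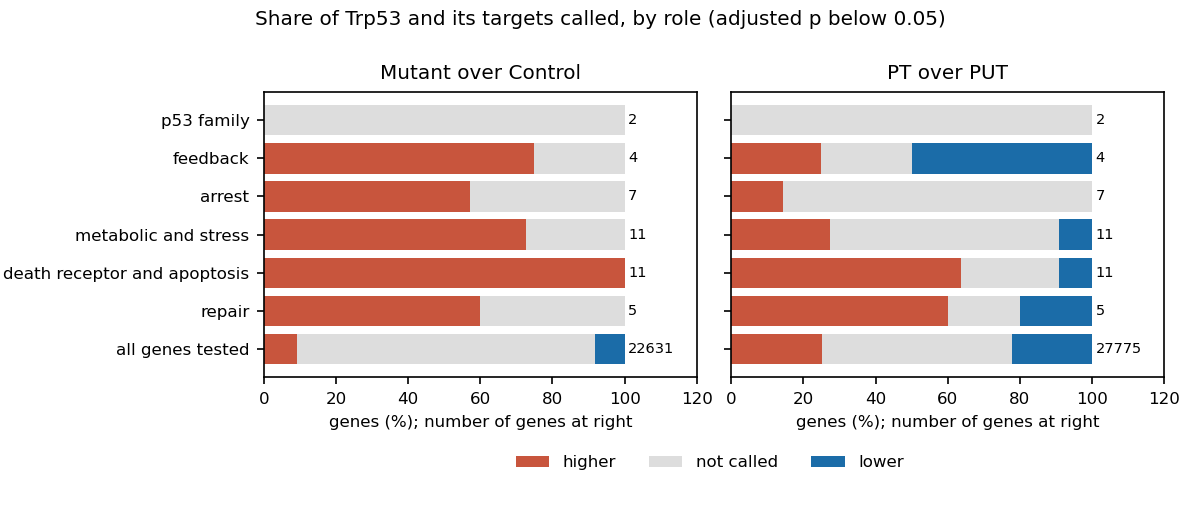
Percent of genes higher (red), not called (grey) and lower (blue) at an adjusted p below 0.05, for each role and for all genes tested, with the number of genes at the right of each bar. In Mutant over Control no bar of a role holds a gene that fell, while in PT over PUT 4 of the 6 roles hold one.

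The promoter sequences of the genes are shown first, since p53 acts by binding DNA. The p53 half-site consensus has 10 bases: 3 purines, C, 2 bases that are A or T, G and 3 pyrimidines. It reads the same on both strands. It was searched in RefSeq promoter windows (GRCm38.p6) of 250 bases before to 50 bases after a transcription start, which matched 32 of the 40 genes by symbol with 44 windows. Of those windows 13 held a half-site (29.5%), against 8.36% of the 32851 windows of all genes. The genes were chosen as known p53 pathway genes, so a higher share can come with that choice, and it was not tested. The site of Aen was counted in each of its overlapping windows. Only matches at all 10 bases were counted, so sites with a mismatch were not searched and may be present. By this exact search no window of these genes held the full form, 2 half-sites with a spacer of 13 bases or fewer. Of the 32851 windows, 24 did. A match is a description and not a bound site, and binding was not measured here. Each half-site is given in capitals with 10 bases on each side, because these are the matches to the consensus in the windows searched.
Ddit4l, chr3:137623572-137623601, plus strand: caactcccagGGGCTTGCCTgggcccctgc
Gadd45a, chr6:67037428-67037457, minus strand: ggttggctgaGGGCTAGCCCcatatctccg
Aen, chr7:78895927-78895956, plus strand: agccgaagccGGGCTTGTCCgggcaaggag
Ei24, chr9:36797325-36797354, minus strand: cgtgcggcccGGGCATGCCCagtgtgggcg
Rps27l (upstream copy), chr9:66946193-66946222, plus strand: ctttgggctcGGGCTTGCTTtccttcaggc
Rps27l (downstream copy), chr9:66946296-66946325, plus strand: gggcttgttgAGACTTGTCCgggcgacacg
Sesn1, chr10:41887256-41887285, plus strand: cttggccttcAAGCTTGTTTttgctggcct
Mdm2, chr10:117710925-117710954, minus strand: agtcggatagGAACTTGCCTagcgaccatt
Ccng1, chr11:40755452-40755481, minus strand: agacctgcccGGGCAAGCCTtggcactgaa
Trp53, chr11:69580274-69580303, plus strand: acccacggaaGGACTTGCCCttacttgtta
Ppm1d, chr11:85311112-85311141, plus strand: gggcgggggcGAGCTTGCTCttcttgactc
Polk, chr13:96519399-96519428, minus strand: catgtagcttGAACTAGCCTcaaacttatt
Abhd4, chr14:54259274-54259303, plus strand: cgacccggcaGGGCTTGTTTactatggctg
Distances are from the start of a window that held the site, and Aen, Rps27l, Sesn1, Polk and Abhd4 each have another window. The other windows of Rps27l, Sesn1, Polk and Abhd4 held no half-site. The half-sites of Ccng1 and Mdm2 began 185 and 186 bases upstream of the start. Those of Ei24 and Aen began 10 bases upstream of it and 11 bases into the transcript. The same site of Aen lies upstream of the start of its other window. Rps27l held 2 in the same window, at 210 and 107 bases upstream of that window's start. Both lie inside the gene as annotated from 66946086 (GENCODE M21). The half-sites of Ddit4l, Gadd45a, Aen, Ei24, Sesn1, Polk and Abhd4 also lie inside their genes by that annotation. Those of Mdm2, Ccng1, Trp53 and Ppm1d lie upstream of the annotated gene. Of the 12 genes with a half-site, 9 rose in Mutant cells in the authors' deposited table, and of the 20 genes with a window but no half-site 14 did. Gadd45a, Sesn1 and Trp53 had one and were not called. Zmat3, Trp53inp1, Perp, Ptp4a3, Rrm2b, Xpc, Ddb2 and Tnfrsf10b had no window in the table used.

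Uhrf1 acts at CpG dinucleotides, and their number in these windows is given as context, with no methylation measured here. The 44 windows held a median of 18.5 CpGs, with a range of 1 to 46, against a median of 7.0 in the windows of all genes. The windows of all genes were not restricted to genes expressed in these cells, and this difference was not tested. The windows of the genes with the largest called change in their role are shown with CpGs in capitals, for metabolic (Dcxr), arrest (Btg2), feedback (Ccng1) and repair (Ercc5) genes. Perp, the leader of the death genes, had no window.
Btg2, chr1:134079106-134079405, minus strand: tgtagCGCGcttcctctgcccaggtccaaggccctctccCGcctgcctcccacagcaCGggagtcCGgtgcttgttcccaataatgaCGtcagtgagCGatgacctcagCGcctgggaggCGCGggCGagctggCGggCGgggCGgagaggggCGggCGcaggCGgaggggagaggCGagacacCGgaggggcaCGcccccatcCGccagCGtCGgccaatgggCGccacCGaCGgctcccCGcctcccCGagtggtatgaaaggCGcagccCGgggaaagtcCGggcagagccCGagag
Ccng1, chr11:40755237-40755536, minus strand: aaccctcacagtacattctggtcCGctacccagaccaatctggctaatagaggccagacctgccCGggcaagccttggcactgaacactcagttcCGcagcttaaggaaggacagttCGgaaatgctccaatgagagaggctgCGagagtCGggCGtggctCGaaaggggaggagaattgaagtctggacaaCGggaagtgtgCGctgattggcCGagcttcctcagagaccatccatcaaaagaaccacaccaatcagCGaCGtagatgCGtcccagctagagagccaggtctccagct
Dcxr, chr11:120727235-120727534, minus strand: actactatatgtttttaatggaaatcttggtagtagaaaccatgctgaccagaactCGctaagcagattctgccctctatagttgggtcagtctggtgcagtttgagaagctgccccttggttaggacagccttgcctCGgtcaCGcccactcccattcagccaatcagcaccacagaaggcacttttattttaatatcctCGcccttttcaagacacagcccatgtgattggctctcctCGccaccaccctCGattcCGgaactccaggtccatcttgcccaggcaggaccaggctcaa
Ercc5, chr1:44147494-44147793, plus strand: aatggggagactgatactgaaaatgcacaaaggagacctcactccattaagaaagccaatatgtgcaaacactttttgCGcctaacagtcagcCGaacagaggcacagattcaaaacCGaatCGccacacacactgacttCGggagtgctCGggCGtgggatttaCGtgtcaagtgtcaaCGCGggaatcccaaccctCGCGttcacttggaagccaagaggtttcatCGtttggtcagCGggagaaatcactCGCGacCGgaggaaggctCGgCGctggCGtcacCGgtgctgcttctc
Btg2 had 32 CpGs, Ercc5 had 21, Ccng1 had 14 and Dcxr had 7. Low and high CpG content thus both occurred among the genes that rose most in their role.

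Trp53 did not pass the threshold. Its mean was 167 TPM in Mutant cells and 164 TPM in Control cells in the authors' deposited table, and the log2 estimate was 0.02 (95% interval -0.12 to 0.15, adjusted p = 0.926). The interval leaves room for changes of its mRNA by about that amount in either direction. Trp73, a relative of p53, was at 0.427 TPM in Mutant cells and 0.0400 TPM in Control cells in the authors' deposited table, too low for a firm statement (log2 estimate 2.04, SE 1.22, adjusted p = 0.324).

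Among the feedback genes, both of the most abundant ones rose. Ccng1 encodes cyclin G1, which recruits a phosphatase to Mdm2. It averaged 384 TPM in Mutant cells and 158 TPM in Control cells in the authors' deposited table, 2.43-fold higher (log2 estimate 1.27, SE 0.12, adjusted p = 2e-22). Mdm2, the ubiquitin ligase that degrades p53, averaged 346 TPM in Mutant cells and 154 TPM in Control cells in the authors' deposited table, 2.25-fold higher (log2 estimate 1.04, SE 0.14, adjusted p = 2.14e-12). Ppm1d, the phosphatase Wip1 that switches p53 signalling off, was close to the threshold, at 22.4 TPM in Mutant cells and 19.8 TPM in Control cells in the authors' deposited table (log2 estimate 0.29, SE 0.11, adjusted p = 0.0431). Mdm4, the partner of Mdm2 that binds p53 without degrading it alone, was at 59.4 TPM in Mutant cells and 56.6 TPM in Control cells in the authors' deposited table and was not called (log2 estimate -0.08, 95% interval -0.23 to 0.07). Ccng1 lies on chromosome 11 from 40748552 to 40755311 and Mdm2 on chromosome 10 from 117688875 to 117710758, both on the minus strand (GENCODE M21, GRCm38).

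The arrest genes split into 4 that rose and 3 that did not pass. Btg2, an antiproliferative cofactor of mRNA deadenylation, averaged 44.2 TPM in Mutant cells and 14.3 TPM in Control cells in the authors' deposited table, 3.09-fold higher (log2 estimate 1.61, SE 0.27). Ptp4a3, a tyrosine phosphatase, was at 93.6 TPM in Mutant cells and 37.8 TPM in Control cells in the authors' deposited table (log2 estimate 1.28, SE 0.24). Psrc1, a microtubule-binding protein of the mitotic spindle, was at 62.8 and 27.3 TPM in Mutant and Control cells in the authors' deposited table (log2 estimate 1.14, SE 0.13). These 3 genes more than doubled by their mean TPM. Zmat3, an RNA-binding zinc finger protein that regulates splicing, changed less but with the smallest error of the 40 genes. It averaged 76.7 TPM in Mutant cells and 45.6 TPM in Control cells in the authors' deposited table (log2 estimate 0.71, SE 0.05, adjusted p = 3.03e-41). Gadd45a, a growth arrest protein induced by DNA damage, was at 105 TPM in Mutant cells and 98.1 TPM in Control cells in the authors' deposited table (log2 estimate 0.11, 95% interval -0.11 to 0.32). The polo-like kinase Plk2 was at 96.1 and 97.0 TPM in Mutant and Control cells in the authors' deposited table (95% interval -0.38 to 0.34), and its relative Plk3 at 7.67 and 8.61 TPM (95% interval -0.50 to 0.15). Abundant arrest genes thus lay on both sides of the threshold.

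Metabolic and stress genes had the highest median change. Dcxr, a reductase of dicarbonyls and xylulose, averaged 30.2 TPM in Mutant cells and 6.71 TPM in Control cells in the authors' deposited table, 4.49-fold higher (log2 estimate 2.15, SE 0.23, adjusted p = 2.3e-18). Ddit4l, an inhibitor of mTOR signalling, was at 32.0 TPM in Mutant cells and 10.01 TPM in Control cells in the authors' deposited table (log2 estimate 1.89, SE 0.16). Ephx1, the microsomal epoxide hydrolase, was at 75.2 TPM in Mutant cells and 25.1 TPM in Control cells in the authors' deposited table (log2 estimate 1.58, SE 0.12, adjusted p = 2.27e-36). These 3 genes were 2.99-fold to 4.49-fold higher in Mutant cells by their mean TPM. Ak1, adenylate kinase, which balances adenine nucleotides and is abundant in muscle, averaged 216 TPM in Mutant cells and 76.2 TPM in Control cells in the authors' deposited table, 2.83-fold higher (log2 estimate 1.40, SE 0.20). Abhd4, a lipid hydrolase, was at 52.1 and 21.0 TPM in Mutant and Control cells in the authors' deposited table (log2 estimate 1.25, SE 0.09). Pltp, the phospholipid transfer protein, was low, at 4.86 TPM in Mutant cells and 1.18 TPM in Control cells in the authors' deposited table (log2 estimate 1.99, SE 0.37). The stress hormone gene Gdf15 was at 24.9 TPM in Mutant cells and 14.0 TPM in Control cells in the authors' deposited table (log2 estimate 0.80, SE 0.16).

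The sestrins, which restrain mTOR when nutrients are short or oxidants high, differed in their calls. Sesn2 averaged 25.1 TPM in Mutant cells and 14.3 TPM in Control cells in the authors' deposited table and rose (log2 estimate 0.80, SE 0.10, adjusted p = 1.06e-12). Sesn1 averaged 6.67 TPM in Mutant cells and 4.79 TPM in Control cells in the authors' deposited table and was not called (log2 estimate 0.39, 95% interval 0.05 to 0.72, adjusted p = 0.112). The difference between the sestrins was not tested. Dram1, a lysosomal membrane protein of autophagy, was just outside the threshold at 6.68 and 4.54 TPM in Mutant and Control cells in the authors' deposited table (log2 estimate 0.49, SE 0.20, adjusted p = 0.0816). Fdxr, ferredoxin reductase of the mitochondrion, was at 12.7 and 10.96 TPM in Mutant and Control cells in the authors' deposited table (95% interval -0.09 to 0.73).

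Every one of the 11 genes of death receptors and apoptosis rose in Mutant cells in the authors' deposited table. Trp53inp1, a nuclear protein of apoptosis and autophagy, averaged 64.9 TPM in Mutant cells and 18.2 TPM in Control cells in the authors' deposited table, 3.56-fold higher (log2 estimate 1.94, SE 0.18, adjusted p = 3.11e-25). The death receptor gene Fas was low, with 6.19 TPM in Mutant cells and 1.70 TPM in Control cells in the authors' deposited table (log2 estimate 1.90, SE 0.38, adjusted p = 1.17e-05). Perp, a membrane protein of desmosomes and apoptosis, was lower still, at 2.35 TPM in Mutant cells and 0.290 TPM in Control cells in the authors' deposited table (log2 estimate 3.01, 95% interval 1.85 to 4.16). Perp had the largest estimate of the 40 genes and also a wide error. Eda2r, a receptor of the TNF receptor family for ectodysplasin, averaged 63.9 TPM in Mutant cells and 34.6 TPM in Control cells in the authors' deposited table (log2 estimate 0.89, SE 0.07, adjusted p = 1.4e-31). The TRAIL receptor gene Tnfrsf10b was at 38.4 TPM in Mutant cells and 23.1 TPM in Control cells in the authors' deposited table (log2 estimate 0.72, SE 0.10). Of the 3 receptor genes, Fas was the least abundant in both groups by TPM.

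The remaining 6 death genes act inside the cell and had estimates between 0.33 and 0.71. Ei24, a membrane protein of the endoplasmic reticulum, was at 134 TPM in Mutant cells and 78.4 TPM in Control cells in the authors' deposited table (log2 estimate 0.71, SE 0.07). Apaf1, the scaffold of the apoptosome, was at 29.6 and 19.0 TPM in Mutant and Control cells in the authors' deposited table (log2 estimate 0.62, SE 0.08). Phlda3, an inhibitor of Akt, was at 245 and 165 TPM in Mutant and Control cells in the authors' deposited table (log2 estimate 0.55, SE 0.07). Each of these 3 rose by less than 2-fold. Pidd1, the scaffold of the PIDDosome that activates caspase-2, was at 16.1 and 10.8 TPM in Mutant and Control cells in the authors' deposited table (log2 estimate 0.55, SE 0.13). Rps27l, a ribosomal protein S27 paralogue, was the most abundant of the 40 genes, at 898 TPM in Mutant cells and 707 TPM in Control cells in the authors' deposited table (log2 estimate 0.34, SE 0.06, adjusted p = 7.29e-07). The exonuclease gene Aen was at 119 and 89.8 TPM in Mutant and Control cells in the authors' deposited table (log2 estimate 0.33, SE 0.07). Rps27l resembles Rps27, so reads could be split between them.

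Of the repair genes, 3 rose and 2 did not pass. Ercc5 encodes the endonuclease XPG of nucleotide excision repair and was at 31.2 TPM in Mutant cells and 16.4 TPM in Control cells in the authors' deposited table (log2 estimate 0.85, SE 0.10, adjusted p = 3.51e-15). Polk, a DNA polymerase of translesion synthesis, was at 28.8 TPM in Mutant cells and 16.9 TPM in Control cells in the authors' deposited table (log2 estimate 0.80, SE 0.10). Rrm2b, the p53-induced subunit of ribonucleotide reductase, was just inside the threshold at 17.1 TPM in Mutant cells and 14.4 TPM in Control cells in the authors' deposited table (log2 estimate 0.38, SE 0.14, adjusted p = 0.0353). The damage recognition genes of nucleotide excision repair did not pass. Xpc was at 7.32 TPM in Mutant cells and 7.07 TPM in Control cells (95% interval -0.24 to 0.32), and Ddb2 at 1.93 and 1.72 TPM in Mutant and Control cells, in the authors' deposited table. The error of Ddb2 was wide (95% interval -0.68 to 0.95 in the authors' deposited table), and the interval leaves room for a fall or a rise within it.

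Exons of 8 of the 40 genes overlap another annotated gene (GENCODE M21), on the same strand for Ephx1 and on the other strand for Ddb2, Ei24, Gadd45a, Plk3, Pltp, Rrm2b and Trp73. Whether the authors' counting used the strand is not stated in the labels, so reads of these pairs could be mixed.

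**Figure D3:**
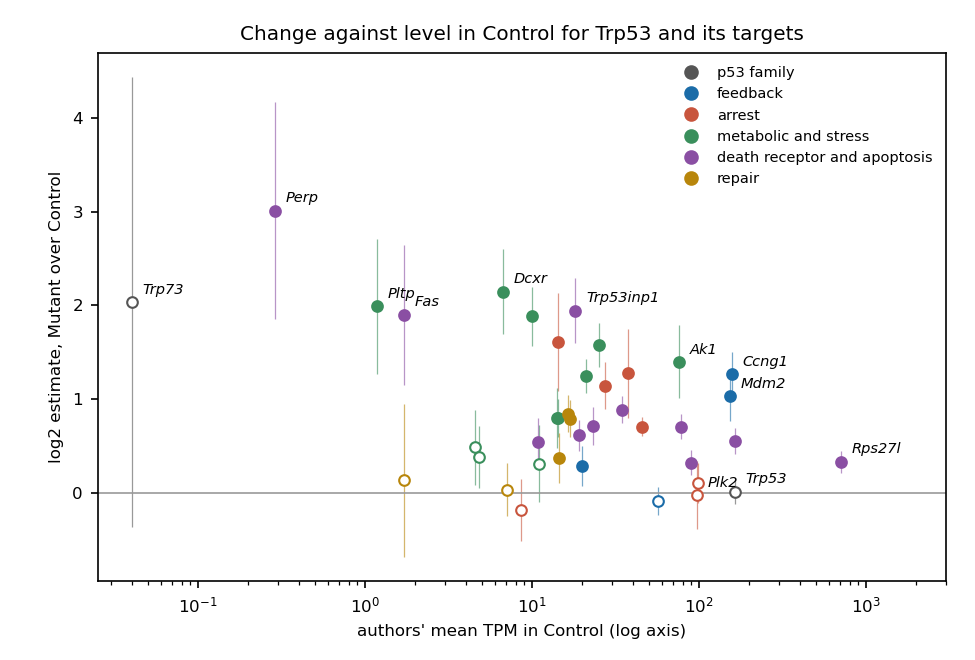
Log2 estimate of Mutant over Control (bars are 95% intervals) against the mean TPM in Control (log axis) for each gene, coloured by role; filled points had an adjusted p below 0.05 in the authors' deposited table. Intervals are widest for Trp73, Perp, Ddb2 and Fas, all below 2 TPM in Control, and the abundant genes hold both risen (Ccng1, Mdm2) and uncalled (Trp53, Plk2) members.

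Over the 40 genes, the Spearman correlation between the Control TPM and the log2 estimate of the authors' deposited table was -0.29, and it was -0.35 over the 31 genes of at least 10 TPM. The genes share their libraries, and the Control values enter both axes, so the correlation is given as a description.

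Other genes of the pathway were taken from lists of further p53 targets and of regulators of p53. Of 31 measured genes in a list of 33 other p53 targets, 14 rose and 1 fell in Mutant cells in the authors' deposited table (45.2% and 3.23%), beside 9.03% and 8.1% of all genes and 15.6% and 19.6% of genes of at least 10 TPM. Their median log2 fold change was 0.35 in the authors' deposited table, and 25 of the 31 had at least 10 TPM. Def6 (log2 estimate 2.25, SE 0.40), Ddit4 (1.51, SE 0.14) and Zfp365 (0.86, SE 0.12) had the largest increases among those of at least 10 TPM in the authors' deposited table. Igfbp3, which encodes a binding protein of insulin-like growth factors, fell to 19.6 TPM in Mutant cells, against 28.3 TPM in Control cells, in the authors' deposited table (log2 estimate -0.55, SE 0.14, adjusted p = 0.00108). Cdkn1a, which encodes the cell cycle inhibitor p21, averaged 726 TPM in Mutant cells and 474 TPM in Control cells in the authors' deposited table, and rose with a log2 estimate of 0.54 (SE 0.13), beside 1.27 for Ccng1 and 1.04 for Mdm2. Of 29 measured genes that regulate p53, 4 rose and 6 fell in Mutant cells in the authors' deposited table, with a median log2 fold change of -0.02. These shares, 13.8% and 20.7%, were near the 15.6% and 19.6% of genes of at least 10 TPM, a level that 26 of the 29 had in the authors' deposited table. Pml, the scaffold of nuclear bodies, rose (log2 estimate 0.72, SE 0.09), with Ppp1r13l (0.45, SE 0.13) and Rchy1 (0.31, SE 0.10), in the authors' deposited table. The checkpoint kinase Chek1 fell (-0.57, SE 0.11), with the deubiquitinase Usp10 (-0.44, SE 0.07) and the deacetylase Sirt1 (-0.30, SE 0.09), in the authors' deposited table.

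The table of PT and PUT arms was described separately, since neither the labels nor the headers say which groups these arms are. Its log2 fold changes are read as PT over PUT, after the order of its name, and Uhrf1 had -4.00 (SE 0.27) in it. It gives a mean normalised count over all its libraries and no level per arm. Of the 40 genes, 15 rose and 5 fell in PT in the authors' deposited table, beside 25.1% of all genes that rose and 22.1% that fell (47.2% called in either direction). The median log2 fold change of the 40 was 0.15, against 0.14 over all genes of the authors' deposited table, with 25 of the 40 positive and 15 negative. Of the 33 other p53 targets, 11 rose and 7 fell in PT (33.3% and 21.2%), with a median of 0.08. Zfp365 (0.61, SE 0.10) and Cdkn1a (0.27, SE 0.08) rose there. Def6 (-0.45, SE 0.13) and Igfbp3 (-1.15, SE 0.12) fell, and Ddit4 did not pass (-0.09, SE 0.12). Of the 29 measured regulators of p53, 9 rose and 6 fell in PT (31.0% and 20.7%). No label says whether the 2 tables share libraries, so the values are set side by side with no test of the difference.

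**Figure D4:**
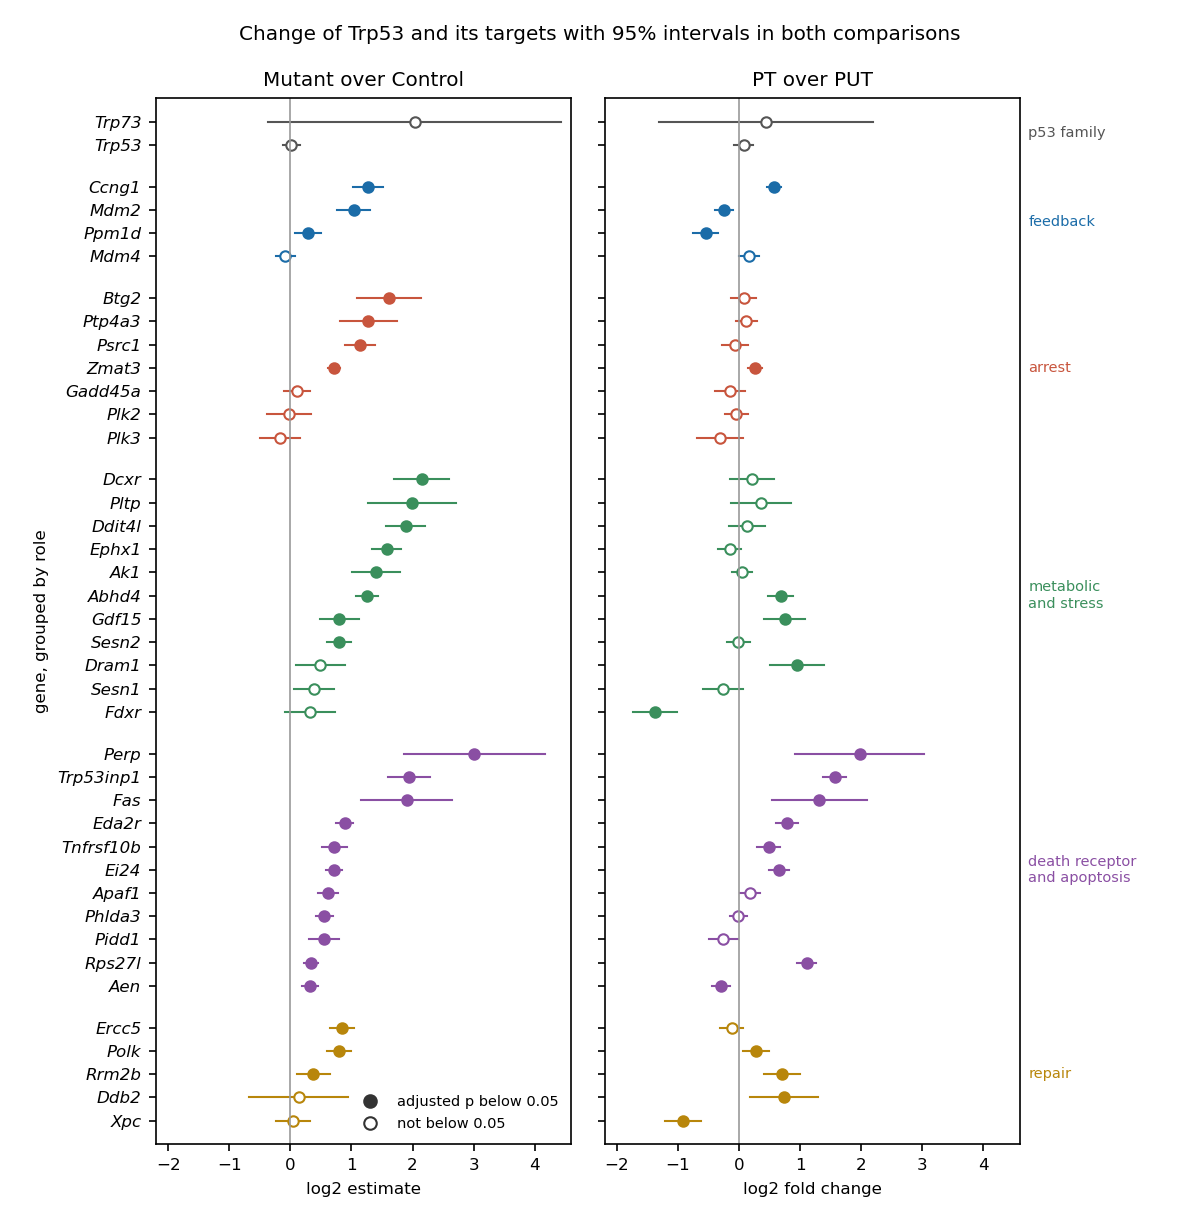
Change of each gene with its 95% interval (log2), with Mutant over Control at the left and PT over PUT at the right; filled points had an adjusted p below 0.05 in the authors' deposited tables. Death genes such as Trp53inp1, Eda2r and Ei24 lie to the right of 0 in both panels, while metabolic and arrest genes such as Ak1, Ephx1, Btg2 and Psrc1 lie near 0 at the right. Roles are mixed there: the death gene Phlda3 lies near 0 and Aen left of it. Of the metabolic genes, Dram1 and Gdf15 lie right of 0 and Fdxr left of it.

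Death genes held 7 of the 15 increases in the PT arm, with 7 of the 11 higher and 1 lower in the authors' deposited table, beside 25.1% and 22.1% of all genes. Trp53inp1 had 1.56 (SE 0.10, adjusted p = 2.84e-54) in PT over PUT in the authors' deposited table, and an estimate of 1.94 in Mutant over Control. Eda2r (0.78, SE 0.09), Ei24 (0.65, SE 0.08) and Tnfrsf10b (0.49, SE 0.09) also rose in PT in the authors' deposited table, as did the low genes Fas (1.32, SE 0.40) and Perp (1.98, SE 0.54). Rps27l had 1.11 (SE 0.08) in PT over PUT in the authors' deposited table, beside 0.34 in Mutant over Control. Aen fell in PT (-0.29, SE 0.07) in the authors' deposited table, while Phlda3 (-0.01, 95% interval -0.15 to 0.13), Apaf1 and Pidd1 did not pass.

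Feedback genes went both ways in the PT arm. Ccng1 rose (0.57, SE 0.06, adjusted p = 1.41e-21), and Mdm2 fell (-0.25, SE 0.07, adjusted p = 0.00214) in PT in the authors' deposited table. Ppm1d also fell in PT (-0.54, SE 0.10) in the authors' deposited table, and Mdm4 did not pass (0.17, SE 0.09). Mdm2, Ppm1d and Aen thus had opposite signs in the 2 tables, each with an adjusted p below 0.05 in both.

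Metabolic genes rose for 3 of 11 and fell for 1 in PT in the authors' deposited table, and the 27.3% that rose were near the 25.1% of all genes. Dram1 (0.95, SE 0.23), Gdf15 (0.75, SE 0.17) and Abhd4 (0.68, SE 0.10) rose in PT in the authors' deposited table. Fdxr fell with -1.38 (SE 0.19, adjusted p = 8.69e-13) in PT in the authors' deposited table, the lowest value of the 40 genes there. Ak1 had 0.05 (95% interval -0.12 to 0.21) in PT over PUT in the authors' deposited table, beside 1.40 (95% interval 1.01 to 1.79) in Mutant over Control. Ephx1 (-0.15, 95% interval -0.34 to 0.03), Ddit4l (0.13, 95% interval -0.16 to 0.43) and Dcxr (0.22, 95% interval -0.15 to 0.58) did not pass in PT over PUT in the authors' deposited table.

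Arrest genes were mostly not called in the PT arm. Zmat3 rose (0.26, SE 0.06) in PT in the authors' deposited table, and the other 6 of the 7 did not pass. Over all genes, 25.1% rose and 22.1% fell. Btg2 had 0.08 (95% interval -0.12 to 0.28) and Psrc1 -0.07 (95% interval -0.27 to 0.14) in PT over PUT in the authors' deposited table. Repair genes rose for Ddb2 (0.74, SE 0.28), Rrm2b (0.70, SE 0.15) and Polk (0.28, SE 0.11) in PT in the authors' deposited table. These were 3 of 5 repair genes (60%), with 1 lower (20%), beside 25.1% and 22.1% of all genes. Xpc fell with -0.92 (SE 0.15, adjusted p = 3.84e-09) in PT in the authors' deposited table, and Ercc5 did not pass (-0.12, SE 0.10). Trp53 was not called in PT over PUT either (0.08, 95% interval -0.08 to 0.24) in the authors' deposited table.

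Markers moved in the PT table as well. Of 8 satellite cell and myoblast markers, 1 rose and 7 fell in PT, and 3 of 6 measured markers of macrophages and leukocytes rose while 1 fell, in the authors' deposited table, beside 25.1% of all genes that rose and 22.1% that fell. Their part in the values of the p53 genes was not tested.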

How the data were processed

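Levels and comparisons were taken from the gene tables of the authors. Per the submitters' processing notes, featureCounts 2.0.1, Trim Galore 0.6.6 and DESeq2 are listed for every library and STAR 2.7.6a for Control and Mutant, with the build GRCm38. Per the file headers, the authors deposited mean TPM per group, log2 fold changes with standard errors, test statistics (score values), p-values and adjusted p-values. For PT and PUT the deposited level is a mean signal, that is, normalised counts averaged over libraries. The deposited log2 fold change of Mutant over Control equals the log2 ratio of mean TPM plus 1 and so understates changes of low genes. Its SE belongs to the log2 estimate of the authors' test, which is the statistic times the SE. Multiplied by 3, 90.4% of the Mutant and 90.0% of the Control means between 10 and 33 TPM were whole multiples of 0.0001 TPM (within 0.02 of that unit), against 30.8% and 30.6% unmultiplied, as averages of 3 values with 4 decimals would be. The authors also deposited whole-number repeat counts per library (1794698 to 2245124 in total), used here for 1 share. Depth per library is unknown for genes.

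No test was refitted. The calls are the authors', at an adjusted p below 0.05 over all genes, and intervals are the estimate plus or minus 1.96 SE. The tests planned on gene counts per library were not run, since no such counts were used. The Benjamini-Hochberg adjustment of the alternatives was tested on simulated data. Python 3.11.15, pandas 2.3.3, scipy 1.17.1 and matplotlib 3.10.9 were used. Values were given for called genes and for uncalled genes of at least 10 TPM, by role, and for the remaining members, and of the pathway lists for the 3 largest called changes in each direction among genes of at least 10 TPM. The gene that is listed under both an old and a new symbol (Rfwd2 and Cop1) counts once. The members, roles and lists were chosen with earlier results of these data known.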

Additional observations from a re-analysis of the deposited data

How the results depend on the processing

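The count of 29 called genes in Mutant over Control, all of them higher, was 27 at an adjusted p below 0.01 (without Ppm1d and Rrm2b), 29 when adjusted over genes of at least 1 TPM or over every gene with a p-value, and 23 when a log2 estimate of at least 1.5-fold was asked for. It stayed 29 with the direction taken from the log2 estimate of the authors' test, where Mdm4, which was not called, turned to -0.081. The median log2 fold change of the members was 0.74, and 0.77 with a pseudocount of 0.1, 0.74 among members of at least 1 TPM and 0.76 by that estimate. In PT over PUT, the 20 called genes became 13, 11 higher and 2 lower, when a 1.5-fold change was asked for, by the construction of that alternative. They became 18 at an adjusted p below 0.01, and 21 when adjusted over genes with a mean normalised count of at least 10, where Apaf1 passed. The median of 0.15 was 0.13 among members with such a count. Only 1 repeat name was taken as a simple repeat, and the share of IAPEz-int was the same without it in every library. That alternative therefore could not test the share. No paired analysis was possible because the gene tables hold comparisons only, with no column per library. For the same reason, leaving out each library in turn, DESeq2 in place of edgeR, other size factors and other count filters were not run for genes, and the weight of the library labelled Control 3 in the Control means was not tested. By that estimate the median of repair genes was 0.38, against 0.23 by the log2 fold change. The SE was 1.22 for Trp73, 0.59 for Perp and 0.41 for Ddb2, and 0.05 for Zmat3, while genes of higher level also had wide errors (0.60 for Uhrf1 and 0.62 for Laptm5). What depth adds to these errors was not tested, since the depth per library is unknown for genes.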

Other observations

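The rank of the members by size of change depends on which value of the same table is read. By the deposited log2 fold change, which adds 1 TPM to both means, Perp had 1.38, Fas 1.41 and Pltp 1.42 in Mutant over Control, below Ephx1 (1.54) and Ddit4l (1.58) in the authors' deposited table. By the log2 estimate of the authors' test the same genes had 3.01, 1.90 and 1.99, above Ephx1 (1.58), in the authors' deposited table. Their levels in Mutant cells were 2.35, 6.19 and 4.86 TPM in the authors' deposited table. Over all genes of the authors' deposited table, 20 called genes had opposite signs in these values, and no member was among them.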
